A study of Mus musculus with 18 samples.

Results

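The RNA of the monosome fraction was compared with total RNA in lipopolysaccharide-treated mouse macrophages labelled as knockouts of Mkrn2, which encodes a ubiquitin ligase that binds RNA. The comparison takes 6 of the 18 libraries of the series, 3 of KO-labelled monosome RNA and 3 of KO-labelled total RNA, which were chosen by their labels and by no measured value. Set beside them are the 3 KO-labelled polysome libraries, and the 3 monosome and 3 total RNA libraries of wild type (WT) cells. All cells, mkrn2-/- and mkrn2+/+, were macrophages grown from thigh bone marrow over 6 days in 20 ng/ml of recombinant M-CSF, the growth factor of macrophages, and then kept for 8 h in lipopolysaccharide (LPS) at 100 ng/ml. The labels give no strain, age, sex or targeted allele, and do not say whether replicates were separate cultures or animals. P-values therefore measure the spread between these libraries, which may be technical.

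Polysome profiling sorts the RNA of a cell lysate by how many ribosomes it carries. Polysomes carry many ribosomes per mRNA, and the monosome fraction holds mRNAs with a lone ribosome, such as short mRNAs, which have room for few, and mRNAs whose translation starts rarely. In macrophages such control is known for ferritin mRNA, which iron regulatory proteins hold back at a hairpin in its 5′ UTR, for ribosomal protein mRNAs, which begin with a pyrimidine tract (TOP mRNAs), and for cytokine mRNAs.

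The KO-labelled monosome libraries held 11996563 to 12606314 counts and the KO-labelled total RNA libraries 12681489 to 16711558. Mkrn2 itself (chromosome 6, 115601902 to 115622624) was still counted in all of them. It stood at 63.4, 75 and 68.0 CPM (counts scaled by library size and TMM factor) in KO-labelled monosome RNA and 85.3, 91.2 and 91.1 in WT monosome RNA, and at 53.7, 57.0 and 60.6 in KO-labelled total RNA and 66.9, 59.7 and 66.3 in WT total RNA. The genotypes did not overlap in monosome RNA and overlapped in total RNA. The labels do not say which part of the gene was removed, so these counts do not check the genotype, which rests on the label. Between KO-labelled monosome and total RNA Mkrn2 differed by 0.27 ± 0.08 on the log2 scale (adjusted p = 0.0088), a call lost without KO monosome replicate 2 (0.20) and reversed by library size alone (-0.76). Marker genes of macrophages summed to 10100 to 11800 CPM in the KO-labelled monosome libraries and 7620 to 7780 in KO-labelled total RNA, with 7 of 11 tested entries higher and 1 lower. In the same order, osteoclast markers summed to 2180 to 2480 CPM against 956 to 1040 (2 of 5 tested higher, 2 lower) and stromal markers to 489 to 526 against 457 to 557 (2 of 12 higher, 5 lower). Markers of neutrophils, T cells, B cells, dendritic cells and megakaryocytes each summed to at most 47.4 CPM in any library. They had 3 of 3, 1 of 1, 1 of 8, 2 of 3 and 0 of 2 tested members higher and 0, 0, 1, 1 and 0 lower, and of the 8 erythroid markers 6 were at 0 in all KO-labelled monosome libraries and 7 in all KO-labelled total RNA libraries. These sums set a fraction against whole-cell RNA, so their differences do not measure the share of cells of a type. Fewer cells of a type and less RNA per cell cannot be told apart in such bulk samples, and the part of these markers in the results was not tested.

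The comparison asks which RNAs collect in the light fraction relative to their amount in the whole cell. By edgeR's quasi-likelihood test, 8354 of 12782 tested genes (65.4%) differed between KO-labelled monosome and total RNA at an adjusted p under 0.05, with 4140 higher (32.4%) and 4214 lower (33.0%) in monosome RNA. At least 2-fold were 4277 (33.5%), 2162 of them higher (16.9%) and 2115 lower (16.5%). The libraries of the 2 groups did not overlap for 69.5% of tested genes. A call is thus common in this comparison. The balance of both directions depends on the scaling: TMM placed the median gene at -0.05, and scaling by library size alone placed it at -1.07, with 1188 genes higher and 8957 lower (11.7% higher, against 49.6% with TMM). All log2 differences below use TMM, so that positive ones below about 1 change sign by library size alone.

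Ferritin mRNAs took more counts of the monosome libraries than any other gene. Fth1, the ferritin heavy chain (chromosome 19, 9982703 to 9985092), stood at 241000, 278000 and 299000 CPM in KO-labelled monosome RNA and 21600, 22700 and 19900 in KO-labelled total RNA. It took 16.9% ± 1.65 of all counts in the monosome libraries, 2.69% ± 0.17 in total RNA and 2.34% ± 0.20 in polysome RNA (SD, n = 3 each). No library of either group came near the other, and the difference was 12.7-fold (log2 3.67 ± 0.16 (SE), adjusted p = 3.82e-11, edgeR). Ftl1, the ferritin light chain (chromosome 7, 45457944 to 45459884), stood at 119000, 133000 and 56900 CPM in monosome RNA and 4040, 8220 and 4310 in total RNA. Its libraries varied widely within both groups without overlap between them, and the log2 difference was 4.22 ± 0.44. Gm10116 (chromosome 13, 74406396 to 74407317), at 28800, 30900 and 31400 CPM against 1770, 1880 and 1780, differed by 4.07 ± 0.14. Its 5′ UTR shares bases with that of Ftl1, so reads may have been divided between the 2 genes, and their separate values are uncertain. Together these 3 genes took 25.1% ± 1.58 of the counts in KO-labelled monosome RNA and 3.62% ± 0.45 in KO-labelled total RNA.

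The ferritin genes share the iron-responsive element, the hairpin that iron regulatory proteins bind. It is shown because the genes with the most counts in the fraction carry it. The motif searched on the transcript strand of the annotated 5′ UTR was a bulged C, any 5 bases, the loop CAGTGN and 5 bases that pair with those before the loop (G with T allowed). Capitals mark the bulged C and the loop; sequences are from GENCODE M21 transcripts on GRCm38, 5′ to 3′.
Fth1, chr19:9982732-9982760, plus strand: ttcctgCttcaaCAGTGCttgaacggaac
Ftl1, chr7:45459779-45459807, minus strand: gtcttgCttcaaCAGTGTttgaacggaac
Gm10116, chr13:74406428-74406456, plus strand: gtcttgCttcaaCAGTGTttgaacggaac

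The bulged C and the loop at this spacing, without the pairing, were found in 965 of 11472 annotated 5′ UTRs (8.41%), and the same with the paired stem in 14 (0.122%). A match is a description of letters and not a bound site. Of the 14 genes, 8 rose and 3 fell in KO-labelled monosome RNA, with a median log2 difference of 0.78 under TMM. Over all tested genes 32.4% rose and 33.0% fell. The 8 include Fth1, Ftl1 and Gm10116, for which the motif was chosen, so these counts do not test the motif.

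Among 18 tested genes of ferritin and iron handling, 9 rose and 4 fell, with a median of 0.32 under TMM and -0.70 by library size alone. Hamp, the iron hormone hepcidin, stood at 9.12, 7.03 and 6.66 CPM in KO-labelled monosome RNA and 1.33, 0.76 and 0.873 in total RNA, a log2 difference of 2.95 ± 0.26. Pcbp2, an RNA-binding protein that also delivers iron to ferritin, rose by 1.54 ± 0.08. Tfrc, the transferrin receptor, whose iron-responsive elements lie in the 3′ UTR, rose by 0.69 ± 0.11. Slc11a2, the divalent metal transporter, fell by 0.54 ± 0.07 on the log2 scale.

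**Figure D1:**
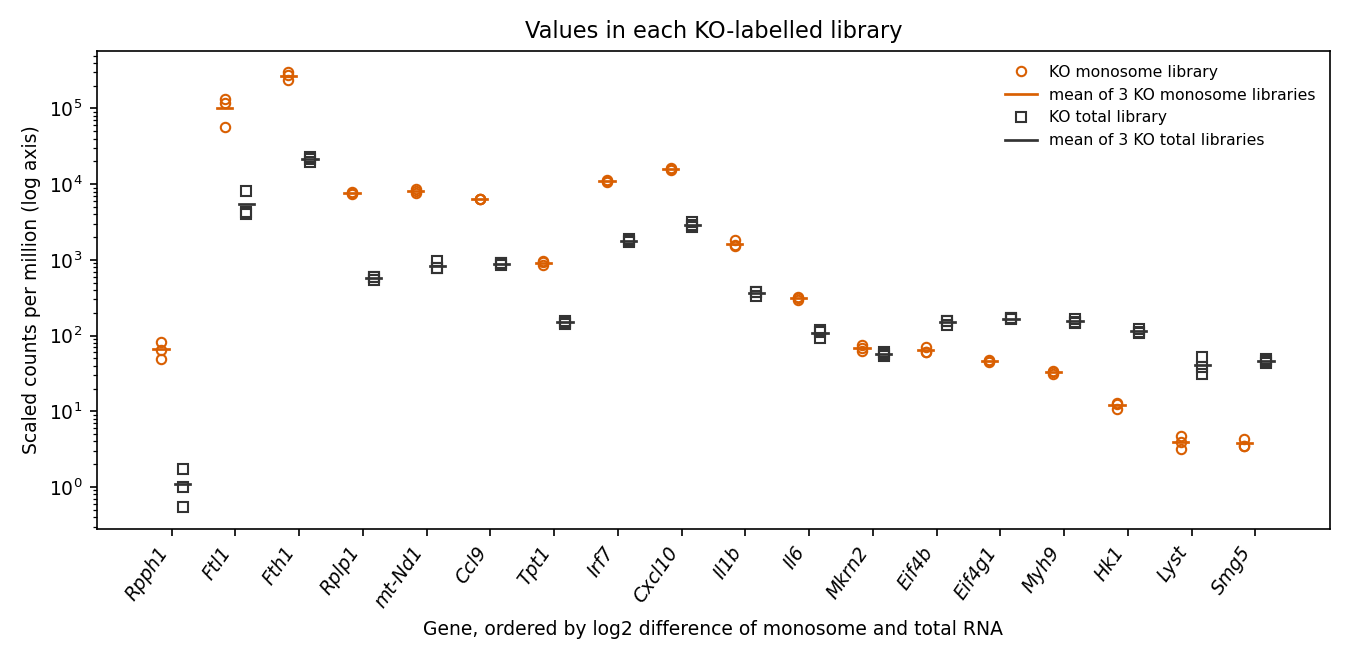
Scaled counts (CPM, log axis) of 18 genes in each of the 3 KO-labelled monosome libraries (circles, left) and 3 KO-labelled total RNA libraries (squares, right), with group means as lines. Rpph1 and the ferritin genes Ftl1 and Fth1 stand higher in monosome RNA at the left, and Hk1, Lyst and Smg5 stand lower at the right, with no overlap of libraries.

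Ribosomal protein mRNAs moved nearly all 1 way. Of 81 tested cytosolic ribosomal protein genes, 79 rose and 0 fell in KO-labelled monosome RNA, and their median of 2.22 stayed positive by library size alone (1.20). The 31 small-subunit genes all rose, by 1.0 to 3.53 (median 2.38), and of 48 large-subunit genes 46 rose (median 2.14). They took 4.31% ± 0.37 of the counts in KO-labelled monosome RNA, 1.6% ± 0.05 in total RNA and 2.40% ± 0.11 in polysome RNA (SD, n = 3 each). Rplp1, a protein of the ribosomal stalk (chromosome 9, 61913284 to 61914538), stood at 7400, 7950 and 7550 CPM in monosome RNA and 588, 594 and 548 in total RNA, a 13.2-fold difference (log2 3.73 ± 0.12, adjusted p = 2.76e-12). Rpl12 differed by 3.22 ± 0.10, Rps19 by 3.13 ± 0.10 and Rplp0 by 2.78 ± 0.09. At the low end came Rpl3, with 1209 coding nt, at 77.7, 104 and 103 CPM in monosome RNA and 74.1, 77.8 and 75.3 in total RNA (0.32 ± 0.12, adjusted p = 0.0252). Ribosomal protein genes have many near-identical copies in the genome, so their counts may be incomplete or shared. Gm10073, among the genes of largest change, had a log2 difference of 3.62 ± 0.19.

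The other TOP mRNAs, which encode translation factors and related proteins, split in direction. Of 21 tested, 15 rose and 6 fell, with a median of 0.67 (-0.35 by library size alone). Tpt1, the translationally controlled tumour protein, stood at 926, 864 and 967 CPM in KO-labelled monosome RNA and 158, 147 and 143 in total RNA, a log2 difference of 2.62 ± 0.07. Naca, a subunit of the nascent polypeptide-associated complex, rose by 1.71 ± 0.08, and the elongation factor subunit Eef1b2 by 1.94 ± 0.14. Eif4b, a cofactor of the initiation helicase, stood at 60.9, 60.3 and 70.2 CPM in monosome RNA and 140, 156 and 157 in total RNA, and fell by 1.24 ± 0.09 on the log2 scale. The elongation factor Eef2 had -1.05 ± 0.11 and the nuclear import receptor Ipo7 -2.49 ± 0.22. The split followed the length of the coding region: the 14 members of up to 1500 nt all rose (0.62 to 2.62), while of the 7 longer ones 6 fell and 1 rose (-2.49 to 0.67).

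This relation to length ran through the whole table. Coding lengths were taken from 1 annotated transcript per gene, which need not be the one made in these cells. Over 11653 tested coding genes, the median log2 difference was 1.12 in the decile with the shortest coding regions (75 to 516 nt), where 76.4% of genes rose and 5.80% fell. In each further decile the median was lower, and it reached -0.97 in the longest (3390 to 26397 nt), where 4.72% rose and 69.1% fell. Another scaling moves all deciles together. Each of the 3 KO-labelled monosome libraries showed the trend against the mean of total RNA: the medians ran from 0.96, 1.03 and 1.01 in the shortest decile to -0.72, -0.85 and -0.77 in the longest, on the log2(CPM + 1) scale.

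**Figure D2:**
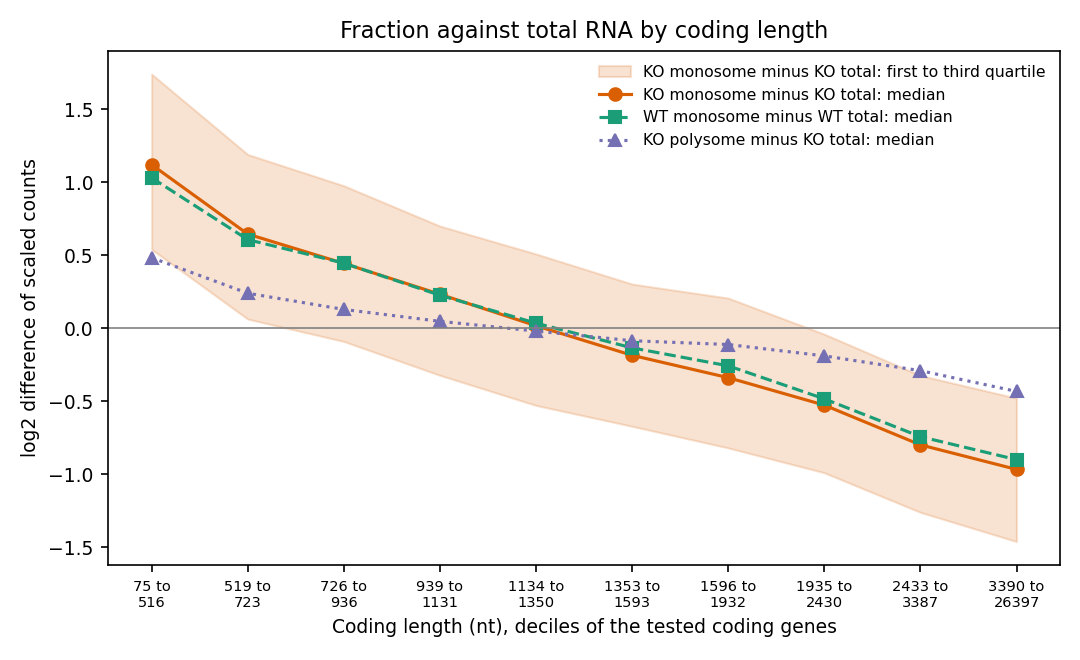
Median log2 difference by deciles of coding length (nt) for KO-labelled monosome minus total RNA (circles, with the interquartile range shaded), WT monosome minus total RNA (squares) and KO-labelled polysome minus total RNA (triangles). With TMM the KO-labelled monosome medians run from 1.12 in the shortest decile to -0.97 in the longest; the polysome medians run from 0.48 to -0.43.

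Spearman's rho with the log2 difference was -0.59 for coding length, -0.58 for the length of the whole transcript, -0.30 for the 3′ UTR and -0.14 for the 5′ UTR, across 11653 genes. These are descriptions across genes of the same libraries. Within the shortest quintile of coding regions, the median was 1.29 where the 3′ UTR was shortest and 0.17 where it was longest; within the longest quintile these values were -1.02 and -1.0. In the 5 quintiles of level in total RNA, from low to high, the median of the shortest quintile of coding regions was 0.89, 0.81, 0.88, 0.91 and 0.91, and that of the longest was -0.74, -0.85, -0.87, -0.95 and -0.90. By the gene length that the deposited values imply, the median was 0.69 in the shortest quintile and -0.60 in the longest.

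Some genes departed from their length class, and the following were chosen after their values were seen, among genes that overlap no other gene. Ccdc180, a coiled-coil protein with 4992 coding nt, stood at 49.0, 53.5 and 49.3 CPM in KO-labelled monosome RNA and 2.66, 3.28 and 2.74 in total RNA, a log2 difference of 4.12 ± 0.18. Polr2a, the largest subunit of RNA polymerase II with 5910 coding nt, stood at 133, 133 and 118 CPM and 63.5, 59.0 and 59.6 (1.08 ± 0.07). Ift172, a protein of ciliary transport, differed by 1.42 ± 0.12. These 3 belong to the 119 of 2328 genes in the longest quintile that rose, while 1564 fell. In the shortest quintile 201 of 2333 genes fell and 1581 rose. The small GTPase Arf3, with 543 coding nt, stood at 70.0, 63.4 and 84.3 CPM in monosome RNA and 265, 269 and 263 in total RNA, a log2 difference of -1.87 ± 0.10, and Cmtm6, a membrane protein that stabilises PD-L1, differed by -1.47 ± 0.11. Of the 8 genes of this quintile that fell most, among those at or above the median level with no overlapping gene, 7 have an annotated 3′ UTR above 2500 nt (3702 nt in Arf3 and 2771 nt in Cmtm6), and the median of tested coding genes is 1000 nt. Tm4sf19, which fell most of these 8 (log2 -2.47 ± 0.15), has only 215 nt. Among all 2333 genes of the quintile, 359 have a 3′ UTR of at least 2403 nt.

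Nuclear genes of the respiratory chain and of mitochondrial ribosomes lay mostly on the higher side. Of 76 nuclear genes of the respiratory chain, 64 rose and 4 fell (median 1.05, and 0.03 by library size alone), and of 77 mitochondrial ribosomal protein genes 67 rose and 3 fell (median 1.17, and 0.15 by library size alone). Of the list's nuclear subunits of complex IV, 10 of 10 rose. Ndufc2, a subunit of complex I, stood at 255, 264 and 292 CPM in KO-labelled monosome RNA and 52.0, 44.1 and 40.2 in total RNA, a log2 difference of 2.57 ± 0.10. Mrpl42 stood at 181, 175 and 171 CPM and 17.7, 19.1 and 19 (3.24 ± 0.09). Among the lowest of the list, the ATP synthase subunit Atp5b and the complex I subunit Ndufs1 both had a log2 difference of -0.82. Set against the median of each gene's own decile of coding length, the list medians were 0.22 for the respiratory chain and 0.47 for mitochondrial ribosomal proteins, against 1.31 for cytosolic ribosomal proteins.

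Mitochondrially encoded genes took 3.89% ± 0.44 of the counts in KO-labelled monosome RNA and 1.79% ± 0.21 in KO-labelled total RNA. Of 13 tested, 11 rose and 0 fell, with a median of 2.12 (1.09 by library size alone). The complex I subunit mt-Nd1 stood at 8090, 7730 and 8740 CPM in monosome RNA and 778, 781 and 969 in total RNA (log2 3.28 ± 0.16). The ATP synthase subunit mt-Atp6 stood at 7720, 1650 and 7930 CPM and 264, 283 and 345. It overlaps mt-Atp8 and mt-Co3, so the assignment of its reads is uncertain. In polysome RNA the list had a median of -0.15 against total RNA, against 2.12 for the monosome fraction.

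Cytokine and chemokine mRNAs were largely on the higher side too. Their induction by LPS was not tested, since all cells were treated. All 11 tested CC chemokines of the list rose, by 1.19 to 3.50 (median 2.59). Of the list's 10 tested CXC chemokines 9 rose (median 1.38). Over the 22 tested genes of the list the median was 1.62, and 0.60 by library size alone. Set against the median of each gene's own decile of coding length, the list's median was 0.52. Ccl9, an attractant of myeloid cells, stood at 6440, 6340 and 6350 CPM in KO-labelled monosome RNA and 901, 857 and 899 in total RNA, a 7.2-fold difference (log2 2.85 ± 0.09, adjusted p = 2.56e-12). Outside the list, and named after their values were seen, Ccl20 had a log2 difference of 0.65, Ccl27a of 0.96 and Ccl25 of 1.25. Ccl6 rose by 2.9 ± 0.10 and the monocyte attractant Ccl7 by 2.59 ± 0.13. Cxcl10, an interferon-induced attractant of T cells, stood at 15800, 15600 and 16200 CPM and 2680, 2850 and 3150 (2.45 ± 0.10). Art3, which lies across Cxcl10 and Cxcl11 on the opposite strand, stood at 1800, 1770 and 2060 CPM and 165, 149 and 173. The labels do not say that counting used strand, so reads of Art3 and of these chemokines cannot be told apart.

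Of 30 genes listed as LPS-induced cytokines, 20 rose and 6 fell, with a median of 0.91 under TMM and -0.12 by library size alone. Set against the median of each gene's own decile of coding length, the list's median was 0.35. Il6, the cytokine named in the study's title (chromosome 5, 30013114 to 30019981), stood at 319, 296 and 314 CPM in KO-labelled monosome RNA and 117, 112 and 92.4 in total RNA. The 2 groups did not overlap, and the difference was 2.89-fold (log2 1.53 ± 0.15, adjusted p = 3.40e-07). In WT the same difference was 1.92 ± 0.16, and the difference between genotypes was -0.40 ± 0.21 (adjusted p = 0.974). In polysome RNA of KO-labelled cells Il6 stood at 86.6, 129 and 150 CPM, overlapping total RNA. The interleukins Il1a and Il1b rose by 2.21 ± 0.09 and 2.18 ± 0.11, Tnf by 1.26 ± 0.10 and Il15 by 1.54 ± 0.10. Inhba, the activin A subunit, and Lif had log2 differences of -1.64 ± 0.28 and -1.25 ± 0.15.

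Interferon-stimulated genes and feedback genes of NF-kB were mixed. Of 44 interferon-stimulated genes 22 rose and 13 fell (median 0.19, and -0.83 by library size alone), and of 26 feedback genes 13 rose and 7 fell (median 0.22, and -0.80 by library size alone). Irf7, the interferon regulatory factor of the antiviral response, stood at 10700, 11000 and 11400 CPM in KO-labelled monosome RNA and 1730, 1790 and 1870 in total RNA, a log2 difference of 2.62 ± 0.14. With 1371 coding nt it lay 2.80 above the median of its decile. Ifitm2, which blocks virus entry, rose by 2.21 ± 0.11, Xaf1 by 1.99 ± 0.08 and the immunity GTPase Irgm1 by 1.44 ± 0.07. At the other end Slfn5 had -2.94 ± 0.23. Among feedback genes, Nfkbid, an inhibitor of NF-kB, rose by 2.09 ± 0.10, the mRNA decay factor Zfp36 by 1.27 ± 0.08, the phosphatase Dusp1 by 1.49 ± 0.11 and Tnip3 by 1.57 ± 0.09.

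Few mRNAs known for regulatory upstream reading frames passed the test: of 23 tested, 5 rose, 4 fell and 14 did not pass, with a median of -0.14 (-1.17 by library size alone). Over all tested genes 65.4% passed, with 32.4% higher and 33.0% lower. Set against the median of each gene's own decile of coding length, the list's median was -0.26, with 8 of 23 above. Ddit3, the stress factor CHOP, stood apart at 371, 374 and 388 CPM in KO-labelled monosome RNA and 74.1, 71.4 and 64.9 in total RNA (log2 2.43 ± 0.10); it overlaps Gm4189 and Mars in the table. Ppp1r15b, a regulator of the phosphatase for eIF2, differed by -1.49 ± 0.09, the glutamyl-prolyl tRNA synthetase Eprs by -1.17 ± 0.10 and the arginine transporter Slc7a1 by -1.3 ± 0.12. Atf4, the classic example of such a frame, rose by 0.73 ± 0.10.

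**Figure D3:**
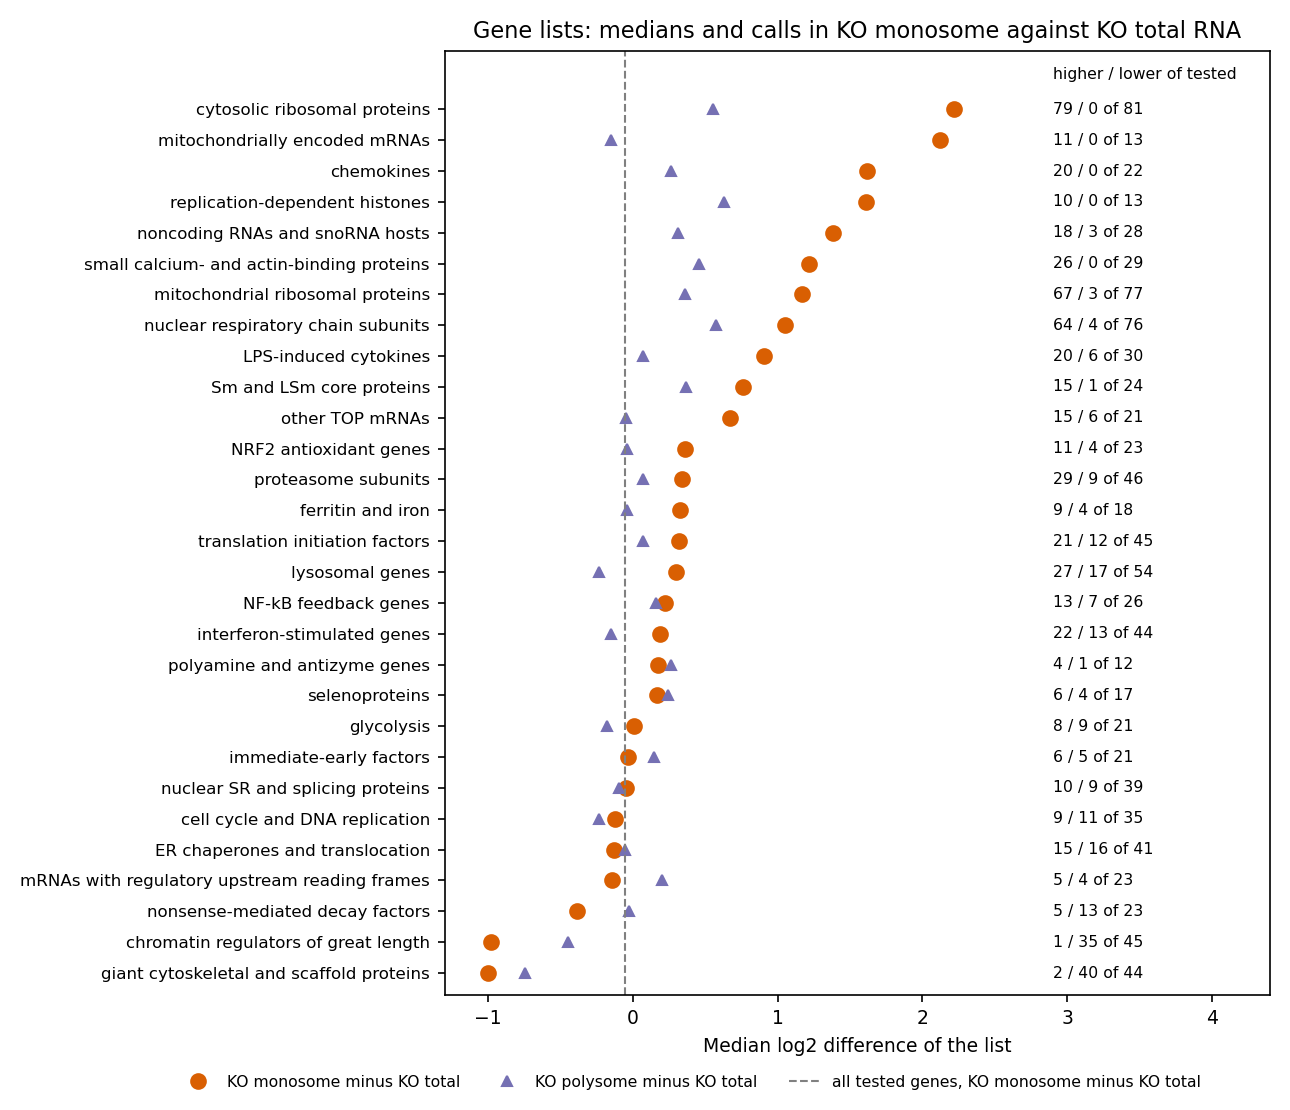
Median log2 difference of 29 gene lists in KO-labelled monosome minus total RNA (circles) and polysome minus total RNA (triangles), with TMM, and the number of members higher and lower of those tested; the dashed line is the median of all tested genes. Cytosolic ribosomal proteins stand highest at 2.22 and giant cytoskeletal proteins lowest at -1.0; by library size alone all circles shift left by about as much as the median gene (-0.05 to -1.07), so positive ones below about 1 change sign.

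Among the gene lists, those of long mRNAs had the lowest medians. Of 44 giant cytoskeletal and scaffold proteins 40 fell and 2 rose (median -1.0), and of 45 long chromatin regulators 35 fell and 1 rose (median -0.98). Lyst, the lysosomal trafficking regulator with 11361 coding nt, stood at 4.76, 3.91 and 3.20 CPM in KO-labelled monosome RNA and 30.9, 39.0 and 52.1 in total RNA, a log2 difference of -3.36 ± 0.24. Myh9, the non-muscle myosin heavy chain, stood at 33.8, 31.1 and 32.9 CPM and 153, 147 and 164 (-2.24 ± 0.15). The endocytic receptor Lrp1 differed by -1.47 ± 0.10, the integrin adaptor Tln1 by -1.24 ± 0.08, the remodeller Chd4 by -1.18 ± 0.08 and the bromodomain protein Baz2a by -1.45 ± 0.13. The 2 exceptions of the first list were Iqgap1 (0.46) and Sptbn1 (0.33), and that of the second was Baz2b (0.43). Within their own decile of coding length these lists lay near its median, at -0.10 and -0.01.

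Factors of nonsense-mediated decay and enzymes of glycolysis held members with large losses. Of 23 decay factors 13 fell and 5 rose (median -0.38). Smg5, which takes part in ending UPF1 phosphorylation (chromosome 3, 88336260 to 88362338), stood at 3.44, 3.52 and 4.35 CPM in KO-labelled monosome RNA and 48.7, 46.1 and 43.0 in total RNA, 12.2-fold lower (log2 -3.60 ± 0.16, adjusted p = 3.42e-11). In the 3 polysome libraries it stood at 52.5 to 66 CPM. Pym1, which takes exon junction complexes apart, rose by 1.49 ± 0.10. In glycolysis 8 of 21 genes rose and 9 fell, with a median of 0.01 (-1.01 by library size alone). Over all tested genes 32.4% rose and 33.0% fell. The hexokinases Hk1 and Hk2 had log2 differences of -3.27 ± 0.08 and -1.13 ± 0.10, and the later enzymes Tpi1 and Pgam1 rose by 1.5 ± 0.10 and 1.17 ± 0.07.

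The largest differences each way also held genes that rest on few libraries or on shared loci: 14 of the 24 genes of largest change overlap another gene of the table, against 42.5% of all tested genes. Gm15832 stood at 976, 10.7 and 9.86 CPM in KO-labelled monosome RNA and 3.75, 5.22 and 6.55 in total RNA, and its log2 difference of 6.00 ± 1.71 was 0.99 without monosome replicate 1; its adjusted p ran from 0.0024 to 0.498 over the alternatives. Gm28048, inside the Commd1 locus, stood at 62.8, 260 and 130 CPM and 9.93, 1.38 and 2.99 (5.0 ± 1.05, and 6.14 without total RNA replicate 1 or 4.36 without monosome replicate 2). Sp1, a general transcription factor, stood at 0.528, 0.391 and 0.768 CPM in monosome RNA and 48.1, 52.8 and 1.87 in total RNA, so its total RNA libraries themselves spanned most of the difference; its call was lost with voom (adjusted p from 4.31e-05 to 0.325 over the alternatives). Among 9393 genes averaging 50 or more counts, 184 varied more than 5-fold among the KO-labelled monosome libraries and 46 among the total RNA libraries.

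Other genes had large losses without overlap between the KO-labelled groups. Cpne1, a calcium-dependent membrane-binding protein, stood at 0.132, 0.13 and 0.256 CPM in KO-labelled monosome RNA and 29.6, 31.1 and 30.9 in total RNA (log2 -7.39 ± 0.59), and it overlaps Rbm12. Tbc1d9 stood at 7.4, 8.08 and 8.07 CPM and 128, 110 and 134 (-3.98 ± 0.45), and the lysosomal iduronidase Idua at 2.11, 2.34 and 3.59 and 46.4, 44.2 and 47.4 (-4.09 ± 0.55). Gm38394, which overlaps Zbed6 and Zc3h11a, had no count in monosome RNA and 2905 in total RNA, at least 416-fold lower by a floor of 3 counts over the group. The others of largest loss were the autophagy protein Atg9a (-4.61 ± 0.63), Mier1 (-3.86 ± 0.71), the arginine methyltransferase Carm1 (-3.73 ± 0.81), the ubiquitin ligase subunit Fbxo11 (-3.53 ± 0.58) and Gas2l3 (-6.12 ± 1.61). Gas2l3 had 1, 3 and 3 counts in monosome RNA and stood at 40.5, 0.62 and 41.6 CPM in polysome RNA. The call of Gas2l3 was lost with voom (adjusted p from 1.39e-06 to 0.344 over the alternatives). Carm1 got no adjusted p with DESeq2 and so lost its call there.

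Noncoding RNAs showed both directions. Of 28 tested noncoding RNAs and host genes of small nucleolar RNAs, 18 rose and 3 fell (median 1.38, and 0.36 by library size alone). Rpph1, the RNA of ribonuclease P, stood at 49.8, 64.7 and 82.6 CPM in KO-labelled monosome RNA and 0.545, 0.997 and 1.75 in total RNA, a 59.9-fold difference (log2 5.91 ± 0.40, adjusted p = 4.10e-09). Rmrp, the RNA of the related ribonuclease MRP, stood at 21.3, 24.9 and 36.5 CPM and 0.727, 0.902 and 0.873 (5.03 ± 0.36). The host genes Snhg6, Gas5 and Epb41l4aos rose by 2.76 ± 0.20, 1.99 ± 0.15 and 2.60 ± 0.14. The nuclear RNAs Malat1 and Neat1 were among the fallers, with log2 differences of -1.12 ± 0.26 and -0.85 ± 0.20. AW112010, chosen after its values were seen, is annotated as a lincRNA and known from mouse macrophages for a translated noncanonical reading frame. It stood at 11100, 9530 and 9980 CPM in monosome RNA and 962, 893 and 837 in total RNA (3.51 ± 0.12).

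The next comparison asks which RNAs distinguish the monosome from the polysome fraction of the same KO-labelled cells. It called 7425 of 12782 genes (58.1%), 3769 higher (29.5%) and 3656 lower (28.6%) in monosome RNA, and 3094 at least 2-fold (24.2%), 1609 of them higher (12.6%) and 1485 lower (11.6%); by library size alone 786 were higher and 9237 lower (7.84% higher, against 50.8%). It shares the monosome libraries with the comparison above. Fth1 stood at 17000, 19600 and 19600 CPM in polysome RNA, and the difference of monosome minus polysome was 3.86 ± 0.16. Tpt1 (2.67 ± 0.07), mt-Nd1 (3.23 ± 0.16), Il1a (2.39 ± 0.09) and Mrpl42 (3.11 ± 0.09) were higher in the monosome fraction too, beside 2.62, 3.28, 2.21 and 3.24 against total RNA in the same order, and their polysome levels lay near those of total RNA. Rplp1 had 982, 1080 and 878 CPM in polysome RNA, above all 3 total RNA libraries, and differed by 2.96 ± 0.11. Mkrn2 was lower in monosome than in polysome RNA by 0.32 ± 0.08 on the log2 scale (adjusted p = 0.00361), and Atf4 differed by 0.03 ± 0.10 (adjusted p = 0.805).

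The median of cytosolic ribosomal proteins was 1.6 for monosome minus polysome and 0.55 for polysome minus total. For the nuclear respiratory chain these values were 0.58 and 0.58, for mitochondrial ribosomal proteins 0.62 and 0.36, for chemokines 1.55 and 0.26, and for giant cytoskeletal proteins -0.32 and -0.74. By coding length, the median of monosome minus polysome was 0.59 in the shortest decile and -0.50 in the longest. Short mRNAs thus stood higher in both fractions than in total RNA, and higher in the monosome than in the polysome fraction, on TMM-scaled values.

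**Figure D4:**
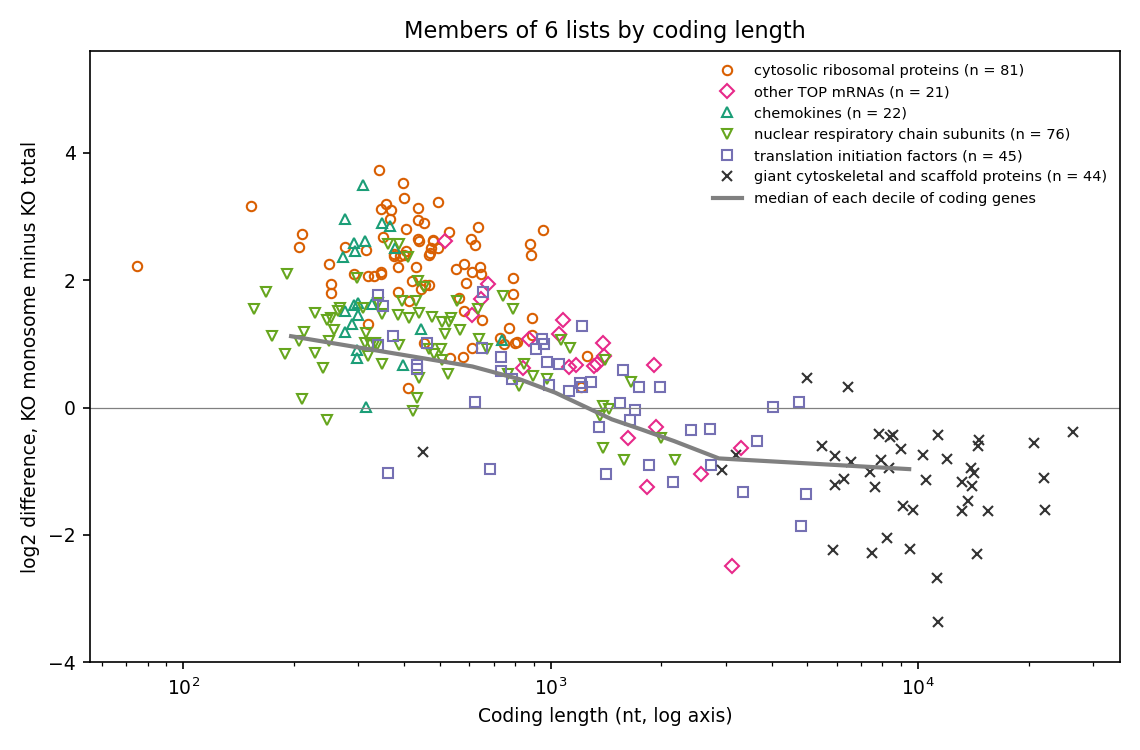
Log2 difference of KO-labelled monosome minus total RNA (TMM) against coding length (nt, log axis) for members of 6 lists, with the median of each decile of coding genes as a line. Cytosolic ribosomal proteins lie mostly above the line (79 of 81), while the other TOP mRNAs cross from 2.62 at 516 nt (Tpt1) to -2.49 at 3114 nt (Ipo7).

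The same comparison in WT cells, which shares no library with that in KO-labelled cells, called 7983 genes (62.5%), 4015 higher (31.4%) and 3968 lower (31.0%), and 3871 at least 2-fold (30.3%), 2045 of them higher (16.0%) and 1826 lower (14.3%); by library size alone 1136 were higher and 8839 lower (11.4% higher, against 50.3%). Of the genes called higher, 3651 were called in both, which is 88.2% of those in KO-labelled cells and 90.9% of those in WT. Of the genes called lower, 3524 were shared, 83.6% and 88.8%, and 5 genes were called in opposite directions. Across 12782 genes the log2 differences of KO-labelled and WT cells had Pearson's r of 0.89 and Spearman's rho of 0.92. Fth1 (3.52 in WT), Rplp1 (3.77), Ccl9 (2.69), Irf7 (2.70) and Smg5 (-4.0) differed by similar amounts. The 3 ferritin genes together took 23.5% ± 1.27 of the counts in WT monosome RNA and 4.18% ± 0.55 in WT total RNA.

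Whether the ratio of monosome to total RNA differs between KO-labelled and WT cells was tested with an interaction term. It called 7 of 12782 genes (0.0548%), 1 higher (0.00782%) and 6 lower (0.0469%) in KO-labelled cells, the 6 lower ones by at least 2-fold, against 675 at an unadjusted p under 0.05. In simulated data this test called 12% of genes changed 2-fold. There, each gene's spread followed a trend over level and few genes changed, so the share need not hold here. Genes that were not called may still differ. The split by direction varied with the setting: 9 higher and 10 lower with DESeq2, 4 and 5 with voom, 3 and 8 with the 4 groups compared only, 2 and 6 by library size alone, and 9 and 8 without WT monosome replicate 2. When each library was left out, 0 to 9 genes were higher and 4 to 17 lower.

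Hk1, which phosphorylates glucose on its entry into glycolysis (chromosome 10, 62268855 to 62379908), had the smallest p. It stood at 12.8, 10.7 and 12.4 CPM in KO-labelled monosome RNA and 124, 109 and 113 in KO-labelled total RNA, but at 84.0, 85.2 and 85.4 in WT monosome RNA and 129, 141 and 131 in WT total RNA. The fall was 9.64-fold in KO-labelled cells (log2 -3.27 ± 0.08) and -0.66 ± 0.07 on the log2 scale in WT, a difference of -2.61 ± 0.11 (adjusted p = 1.02e-09). KO-labelled polysome RNA held 94.0, 87.4 and 91.7 CPM. Hk1 overlaps the annotated antisense gene Hk1os, and reads of the 2 cannot be told apart.

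Aarsd1, an alanyl-tRNA editing protein, stood at 0.264, 0.13 and 0.128 CPM in KO-labelled monosome RNA and 8.42, 7.27 and 6.92 in KO-labelled total RNA, and at 6.07, 5.27 and 5.72 in WT monosome RNA and 9.06, 8.16 and 8.19 in WT total RNA. The ratio differed by -4.79 ± 0.29 (adjusted p = 1.69e-07). Dgcr2 had no count in 2 KO-labelled monosome libraries and 1.92 CPM in replicate 3, and 14.4, 19 and 19.7 CPM in WT monosome RNA (-4.57 ± 0.66, adjusted p = 0.0115). Without KO monosome replicate 3 its difference was -10.8, a fitted value against zeros. Its call was lost with the compared groups only, with voom, with a replicate block and without WT total replicate 1 (adjusted p up to 0.181). Both genes overlap another gene of the table, as do Phf3, Trip4 and Rsu1, so the assignment of their reads is uncertain.

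The zinc-finger protein Phf3, which binds RNA polymerase II, differed by -2.02 ± 0.19 (adjusted p = 5.47e-05), with 5.28, 4.69 and 3.71 CPM in KO-labelled and 21.2, 17.9 and 15.7 in WT monosome RNA. The transcriptional coactivator Trip4 differed by -2.08 ± 0.26 (adjusted p = 0.00183), with 5.15, 4.95 and 4.99 CPM in KO-labelled and 26.9, 14.2 and 21.6 in WT monosome RNA. The nuclear import receptor Kpna6 differed by -1.04 ± 0.16 (adjusted p = 0.0196), a call lost with the compared groups only and without KO monosome replicate 1, KO total replicate 2 or 3, or any WT total replicate (adjusted p up to 0.0875). For these 3 genes total RNA of both genotypes overlapped: Kpna6 had 69.8, 74.6 and 78.2 CPM in KO-labelled and 73.4, 74.5 and 73.1 in WT total RNA.

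Rsu1, a Ras suppressor of cell adhesions, was the gene with a higher ratio in KO-labelled cells (0.91 ± 0.14, adjusted p = 0.0196). It stood at 72.3, 65.8 and 65.2 CPM in KO-labelled and 65.6, 64.6 and 71.5 in WT monosome RNA, and at 26.2, 22.7 and 26.0 in KO-labelled and 48.8, 44.0 and 46.7 in WT total RNA. The groups overlapped in monosome RNA and not in total RNA. Without KO total replicate 2, WT total replicate 1 or WT total replicate 3 its call was lost (adjusted p up to 0.0904). On the higher side Slc35f6 had 2.23 ± 0.44 (adjusted p = 0.171), and Slc7a7 had 1.27 ± 0.23 (adjusted p = 0.0776). Neither passed the test in the main fit. Slc35f6 was called with voom, with DESeq2 and without WT monosome replicate 1 (adjusted p = 9.19e-07 there, edgeR). Slc7a7 was called by library size alone, with voom, with DESeq2 (adjusted p = 0.000115), and without KO total replicate 1 or WT monosome replicate 2. Mkrn1, the paralog of Mkrn2, stood at 237, 260 and 277 CPM in KO-labelled monosome RNA and 121, 122 and 121 in KO-labelled total RNA (log2 1.09 ± 0.06), and its ratio differed between genotypes by 0.12 ± 0.09 (adjusted p = 0.986). By library size alone the KO-labelled difference of Mkrn1 was 0.06, and its call was lost (adjusted p = 0.311, edgeR). By coding length, the median difference of the ratio was 0.07 in the shortest decile and -0.07 in the longest.

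**Figure D5:**
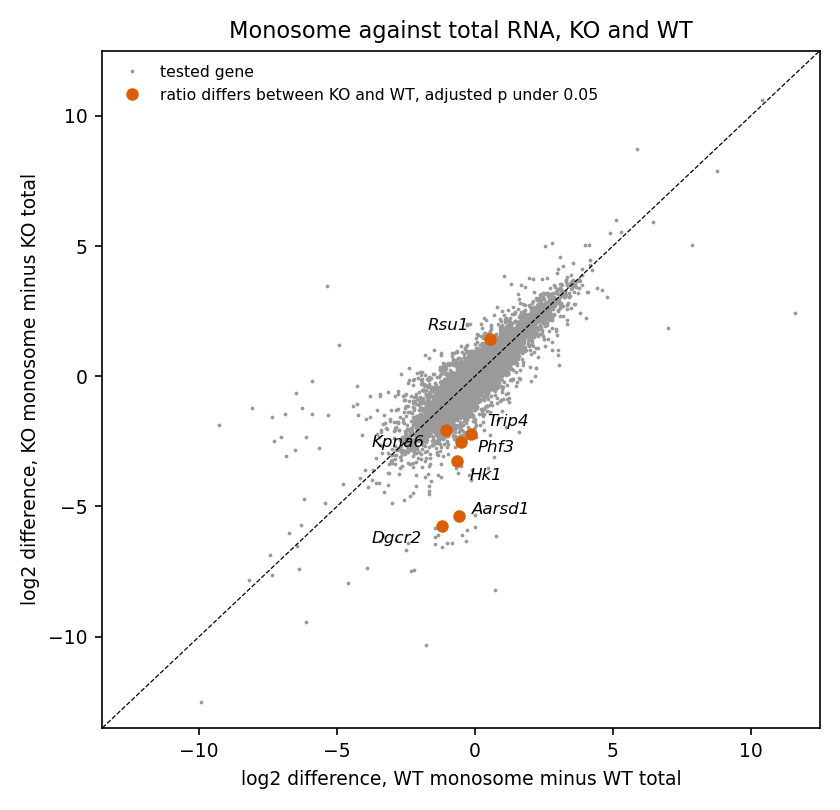
Log2 difference of monosome minus total RNA in KO-labelled cells (vertical axis) against that in WT cells (horizontal axis) for 12782 tested genes (grey); the dashed line marks equal values. The 7 genes whose ratio differed between genotypes are named, with Hk1 at -3.27 in KO-labelled and -0.66 in WT cells.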

How the data were processed

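The authors deposited 1 table of 34745 genes with read counts per gene and FPKM for each library; per the submitters' processing notes fastp 0.23.2, HISAT2 2.0.4 and StringTie 1.3.0 were used, and the genome build and annotation are not given in the sources used here. Per the labels, RNA of cell lysate, polysome and monosome fractions was made into libraries with a SMARTer mRNA kit. The deposited counts were tested; the deposited FPKM served only to recover gene lengths (differing by at most 0.071% between libraries). Of 34267 identifiers found in GENCODE M21 (GRCm38), 80.8% had the same position; gene positions printed are those of the table.

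Tests used edgeR 4.0.16 in R 4.3.3 on the counts: filterByExpr with 6 groups (12782 genes), TMM, 1 mean per group over all 18 libraries, quasi-likelihood F test (two-sided), Benjamini-Hochberg over all tested genes, threshold 0.05. CPM are TMM-scaled, and errors of log2 differences are SE of the fit. TMM factors were 0.605 to 0.664 in monosome and 1.24 to 1.30 in other libraries. Alternatives were RLE size factors, library size alone, no filter, a mean of at least 5 CPM, the compared groups only, a replicate block, voom with quality weights (limma 3.58.1), DESeq2 1.42.0, leaving out mitochondrial genes and Fth1, a 2-fold minimum, and leaving out each library. Tested on simulated data, 86% of 2-fold and 17% of 1.5-fold changes were called for monosome against total RNA, 77% and 16% against polysome RNA. The simulated spread followed a trend over level and few genes changed, so these shares need not hold for the real libraries. Replicates differed beyond sampling noise (chi-square per degree of freedom 15.8 to 51.1 in the 6 libraries).

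The comparison, the 29 gene lists and the 9 marker lists were chosen with earlier results of these data known. The naming rule takes Mkrn2, Mkrn1 and Il6, the 12 genes of largest change each way that passed the test, had no overlap of libraries and lay at the median level or above, up to 5 each way for the ratio, and 4 members per list of smallest p. Members named as the ends of a list, and the length classes, came after the values were seen. Some genes taken by this rule or by the motif search are not reported here.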

Additional observations from a re-analysis of the deposited data

Results flagged for a closer look

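For 7 genes the ratio of monosome to total RNA differed between KO-labelled and WT cells by a test of that difference (edgeR, interaction term). The log2 difference was -2.61 for Hk1, -4.79 for Aarsd1, -2.02 for Phf3, -2.08 for Trip4, -4.57 for Dgcr2 and -1.04 for Kpna6, and 0.91 for Rsu1. Over 21 alternatives the adjusted p was at most 1.60e-06 for Hk1, 0.000269 for Aarsd1, 0.00349 for Phf3 and 0.0188 for Trip4. It reached 0.181 for Dgcr2, 0.0875 for Kpna6 and 0.0904 for Rsu1.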

How the results depend on the processing

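KO-labelled monosome against total RNA gave 8234 calls with DESeq2, 8299 with voom, 8341 with RLE, 8436 with no filter, 7841 with the compared groups only and 7836 to 8107 when each library was left out. With a 2-fold minimum there were 4277 calls, 3094 against polysome RNA and 3871 in WT; leaving out libraries gave 6883 to 7012 and 7426 to 7719. The ratio difference had 11 calls with the compared groups only, 19 with DESeq2 and 4 to 22 when each library was left out, with 22 without KO monosome replicate 3 and 4 without WT total replicate 1. By library size alone 8 of 29 list medians were positive, against 21. The difference in median log2 between the shortest and longest quintiles by gene length was 1.29, 1.35 with a mean of at least 5 CPM, and 1.21 to 1.37 when each library was left out.

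By library size alone these log2 differences turned negative: Mkrn2 -0.76, Sat1 -0.28, Paox -0.21, Srm -0.40, Atf3 -0.0707, Cited2 -0.052, Psmc2 -0.22, Nfe2l2 -0.38, Srsf7 -0.0701, Pcna -0.28, Msr1 -0.0357, Fcgr1 -0.37, Cd68 -0.15, Mmp8 -0.13, S100a8 -0.26, Ccr7 -0.35, Xcr1 -0.30, Ctsk -0.40 and Pf4 -1.01. Pf4, not called at 0.01, also turned negative with no filter (-0.0674), a mean of at least 5 CPM (-0.000292), without mitochondrial genes and Fth1 (-0.00445) and when single libraries were left out (-0.13 to 0.19). Other genes stayed positive by library size alone but lost their calls, among them Mkrn1 (0.06), Sec11c (0.09) and Pgam1 (0.145). The cause of the scaling shift was not tested. Mkrn2 also lost its call with no filter and without KO monosome replicate 2 (0.20 in each).

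The labels do not say whether replicate numbers pair the samples. Same-numbered monosome and total RNA libraries had correlations of deviations of -0.05, 0.03 and -0.02 in KO-labelled and 0.03, 0.01 and 0.01 in WT cells. Such low values do not show pairing, and with 3 libraries per group they cannot exclude it. With the replicate block there were 8322 calls, 7417 against polysome RNA, 7951 in WT and 6 for the ratio difference. Of 2656 values of single genes, 2572 stayed on the same side of the threshold and in the same direction, 44 lost a call, 15 gained one and 25 reversed. Depth limits low genes: 1 count is about 0.13 CPM in a KO-labelled monosome library. Other pseudocounts were not run, since counts were tested.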

Other observations

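Secretory pathway genes went both ways, as did all tested genes (32.4% higher, 33.0% lower). Of 41 tested genes of ER chaperones and translocation, 15 rose and 16 fell in KO-labelled monosome RNA (median -0.13, and -1.15 by library size alone). The signal recognition particle protein Srp19 stood at 61.6, 55.8 and 57.0 CPM in monosome RNA and 19, 18.9 and 18 in total RNA (log2 1.64 ± 0.12), and the signal peptidase subunit Sec11c rose by 1.12 ± 0.10. The disulfide isomerase Pdia4 and the translocation channel subunit Sec61a1 had -1.08 ± 0.10 and -0.96 ± 0.07. Of 14 proton pump subunits of the lysosome 10 rose and 2 fell (median 0.91), and of the other 40 lysosomal genes 17 rose and 15 fell (median 0.06); Atp6v0e rose by 2.05 ± 0.12 and the mannosidase Man2b1 had -1.95 ± 0.11. The 20S core of the proteasome had 15 of 17 members higher and 2 lower (median 0.57), and the 19S regulator 10 of 20 higher and 7 lower (median 0.21). By library size alone the whole lysosomal and proteasome lists had medians of -0.73 and -0.68.

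Of 45 translation initiation factors 21 rose and 12 fell (median 0.32, and -0.70 by library size alone). The scaffold Eif4g1 stood at 47.6, 46.0 and 45.5 CPM in KO-labelled monosome RNA and 165, 170 and 169 in total RNA (log2 -1.86 ± 0.06), while Eif3k and Eif1b rose by 1.82 ± 0.10 and 1.77 ± 0.07. Of 24 Sm and LSm proteins 15 rose and 1 fell (median 0.76, and -0.27 by library size alone); the 1 that fell was Snrnp70, a U1 protein, with -2.04 ± 0.13. Among 29 small calcium- and actin-binding proteins 26 rose and 0 fell (median 1.22, and 0.20 by library size alone), such as the actin regulator Pfn1 (1.35 ± 0.09) and S100a13 (2.25 ± 0.11). Of 13 tested replication-dependent histones 10 rose and 0 fell (median 1.61, and 0.59 by library size alone). Over all tested genes 32.4% rose and 33.0% fell. Set against the median of each gene's own decile of coding length, the Sm and LSm list had a median of -0.07, with 11 of 24 above. These medians were 0.26 for initiation factors, 0.23 for small calcium- and actin-binding proteins and 0.48 for the 12 histones with a coding length.

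Over all tested genes the median with TMM was -0.05, with 32.4% higher and 33.0% lower. The remaining lists had medians of 0.36 for NRF2 antioxidant genes (11 of 23 higher, 4 lower), 0.17 for selenoproteins (6 of 17 higher, 4 lower), 0.17 for polyamine genes (4 of 12 higher, 1 lower), -0.03 for immediate-early factors (6 of 21 higher, 5 lower), -0.04 for splicing proteins (10 of 39 higher, 9 lower) and -0.12 for cell cycle genes (9 of 35 higher, 11 lower). By library size alone all 6 were negative (-0.66, -0.86, -0.85, -1.05, -1.07 and -1.14).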
